A study of Mus musculus with 30 samples.

Results

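In the ovaries of outbred mice, 54 genes were near the floor of the expression table in some libraries and clearly expressed in others. They were taken from the 18022 rows of a deposited log2 CPM table (CPM, read counts scaled to a common library total). A row entered when it was at or below -2 log2 CPM (0.25 CPM, called off) in at least 3 of 30 libraries and at or above 2 log2 CPM (4 CPM, called on) in at least 3 others. Of 56 rows that met both thresholds, 2 histocompatibility genes with symbols starting in H2- were left out, so the members make up 0.300% of the table. The values that chose them are the values described here, so levels, gaps and states are given without a test. Only differences between groups or times were tested.

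The animals were adult females of CD1, a stock kept outbred, so that each can carry other alleles than the next, and polyadenylated RNA of the ovary was sequenced. Vehicle or 1 of 2 plasticizers was dosed for 10 days. DEHP, which is di(2-ethylhexyl) phthalate, was used at 20 and 200 ug/kg/day, and DiNP, or diisononyl phthalate, at 20 and 100 ug/kg/day. Ovaries were collected right after dosing (0 months) or 3 months later, which gives 10 groups of 3 libraries. No separate animal or batch is named for a library, so a p-value here speaks only of the spread between the libraries, which may be technical. Depth, estimated from the steps between low values, was 24.7 to 41.2 M reads with a median of 30.1 M. At that median the off threshold is about 4.56 reads and the on threshold about 117 reads. Markers of oocytes (16 of 16), granulosa (9 of 9), theca (5 of 5) and luteal cells (7 of 7) were present in the table, and in every library their summed levels stood at or above 8.26 log2 CPM.

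Pseudogenes are copies of a gene that have lost its function, and processed pseudogenes were made from its messenger RNA. Genes with near-identical copies share most of their sequence, so that short reads must be divided between them by the few bases that differ. Mouse strains carry different versions of some gene clusters. The adult beta globin cluster exists as a single haplotype, whose genes are named Hbb-bs and Hbb-bt, and as a diffuse haplotype, whose genes are named Hbb-b1 and Hbb-b2.

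Sequences of members that resemble a partner are printed first, because the levels below turn on these pairs. They are reference sequences of the C57BL/6J genome (build GRCm38), not of CD1 mice, printed 5' to 3'. The pseudogene LOC102639044 (5:110117702-110118942) is a copy of Npm1, which encodes the nucleolar protein nucleophosmin. Over 289 ungapped bases of the 876 coding bases of Npm1 it differs at 4, an identity of 98.6%. Coding bases 232 to 321 of Npm1, which span exons within chr11:33160859-33161132 on the minus strand, and the matching stretch of the pseudogene, chr5:110118531-110118620 on the minus strand, are shown with differing bases in capitals.
Npm1: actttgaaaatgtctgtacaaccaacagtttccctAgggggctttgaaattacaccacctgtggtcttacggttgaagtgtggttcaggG
LOC102639044: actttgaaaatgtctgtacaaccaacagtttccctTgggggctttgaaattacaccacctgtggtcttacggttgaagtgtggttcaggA

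The pseudogene Gm5801 (14:56010292-56011480) is a copy of Ube2j2, an enzyme that attaches ubiquitin to proteins at the endoplasmic reticulum. Over 777 bases aligned without a gap, 6 differ (identity 99.2%). Coding bases 625 to 714 of Ube2j2, chr4:155957174-155957263 on the plus strand, and the stretch of Gm5801, chr14:56010638-56010727 on the minus strand, differ at 2 bases, in capitals.
Ube2j2: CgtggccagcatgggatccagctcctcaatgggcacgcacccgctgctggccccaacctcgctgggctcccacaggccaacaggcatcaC
Gm5801: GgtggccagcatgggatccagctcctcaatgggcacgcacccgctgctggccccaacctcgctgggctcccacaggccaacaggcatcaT

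Hmga1b (11:120762794-120764392) is a single-exon relative of Hmga1, which encodes a protein that binds AT-rich DNA in chromatin. All 321 coding bases of the best-matching Hmga1 transcript were the same in both genes. The first 90 are therefore printed once, from chr11:120762889-120762978 and chr17:27559569-27559658, both on the plus strand.
Hmga1 and Hmga1b: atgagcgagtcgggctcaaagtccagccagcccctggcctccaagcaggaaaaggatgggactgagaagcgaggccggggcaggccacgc

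Cphx1 and Cphx2, homeobox genes of the oocyte and early embryo, lie 0.140 Mb apart on chromosome 14. Their RefSeq promoter windows of 250 bases before and 50 after the start are the same apart from a shift of 4 bases, with 0 mismatches over 296 bases. The last 100 bases before each start are shown, chr14:25942444-25942543 and chr14:26082193-26082292, plus strand, with no base marked.
Cphx1: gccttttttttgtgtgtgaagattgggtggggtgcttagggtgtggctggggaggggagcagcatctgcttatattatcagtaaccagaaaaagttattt
Cphx2: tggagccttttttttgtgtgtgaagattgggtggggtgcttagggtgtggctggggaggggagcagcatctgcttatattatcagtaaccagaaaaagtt

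Hbb-bs and Hbb-bt, the beta chains of hemoglobin in the single haplotype, moved together over the libraries, and their last 120 bases before the start are shown, chr7:103827929-103828048 and chr7:103813924-103814043, minus strand. Capitals mark 3 motifs where they stand on the printed strand, and matches on the other strand are left in lower case. Counted on either strand in the 32851 promoter windows of this length, CACCC is held by 31.7%, while CCAAT is held by 21.3% and the TATA-like ATATAA by 4.47%. All 3 together are held by 0.286%. A match describes the letters and shows no bound factor.
Hbb-bs: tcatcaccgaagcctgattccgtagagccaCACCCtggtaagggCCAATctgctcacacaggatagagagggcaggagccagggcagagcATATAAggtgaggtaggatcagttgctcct
Hbb-bt: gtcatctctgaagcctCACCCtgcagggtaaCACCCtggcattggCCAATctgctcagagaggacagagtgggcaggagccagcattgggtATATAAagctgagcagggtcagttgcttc

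Snrpn encodes a spliceosome protein and Snurf is a short reading frame upstream of it in the same imprinted transcript. The promoter table lists 4 starts for Snrpn, and 1 of them is also the start of Snurf. The 100 bases before that shared start, chr7:60005200-60005299 on the minus strand, are shown with no base marked.
Snrpn and Snurf: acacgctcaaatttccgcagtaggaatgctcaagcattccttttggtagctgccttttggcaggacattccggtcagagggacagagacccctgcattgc

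Pseudogenes and predicted genes were more frequent among the members than in the table. Of the 54, 25 (46.3%) were pseudogenes or carried the provisional symbols of predicted genes, against 15.8% of all rows. Pseudogenes made up 7 members (13.0%, against 1.64% of rows). They were Gm9199 (named as a copy of Gcsh), LOC102639044, Gm14719, Gm5801, Gm20875, Gm16525 and Gm2022, of which the last is called a predicted pseudogene in the table and protein coding in RefSeq. The 7 predicted coding genes were Gm3667, LOC108168679, LOC665290, Gm10499, Gm42226, Gm32687 and Gm2016. The 9 predicted non-coding genes were Gm13070, Gm1818, Gm28913, Gm38946, E330035G20Rik, Gm46366, Gm33198, Gm19510 and D930028M14Rik, and the 2 without a match in the annotation were Gm41035 and Gm42368. GENCODE types Gm1818 and Gm10499 as pseudogenes too.

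The other 29 members (53.7%, against 83.0% of rows) were named coding genes. Snurf, Snrpn, Eif3j1 (a subunit of translation initiation factor 3), Hbb-bs and Hbb-bt were among them, as were the DNA-binding proteins Hmga1b, Cphx1, Cphx2, Zfp979, Meox2 and Fosl1. Genes of defence and immunity were Trim30d, Gvin1 (a very large GTPase induced by interferon), Apol7b, Apol7e, Masp2 (a protease of the complement lectin pathway) and Padi4 (which converts arginine to citrulline in proteins). Enzymes were Prss22, Pla2g4b, Lipo2, Cyp11b1 (the last step of glucocorticoid synthesis) and Ctse. Secreted, membrane or calcium-binding proteins were Alb (albumin), Crtac1, S100g, Cldn18, Bdkrb2 (a bradykinin receptor), Dynap and Olfr810 (an odorant receptor). By family, members were 1 of 407 zinc finger rows, 1 of 23 receptor rows of smell and pheromones, 3 of 109 rows of interferon and cell-autonomous immunity, 2 of 7 globin rows and 0 of 109 ribosomal protein rows.

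Members shared much more sequence with other genes than the table at large, a measure that the choice of members did not use. Of the 44 members with GENCODE transcripts, 20 (45.5%) shared at least 50% of their 31-base words with another gene, against 4.45% of 16949 rows. The median shared fraction was 30.0% in members and 0.349% over all rows. At the top, Snurf shared 100% of its words with Snrpn, Gvin1 98.97% with Gm4070, Gm32687 96.0% with Zfp433, Hmga1b 92.7% with Hmga1 and Gm14719 90.6% with Ppdpf. At the other end 12 members (27.3%, against 34.6% of rows) shared none. Among them were Alb, Bdkrb2, Cldn18, Crtac1, Dynap, Fosl1, Masp2 and S100g. Single-exon models made up 11.4% of members and 3.55% of rows. Members are spread over 15 chromosomes, with 8 on chromosome 7 and 7 each on chromosomes 12 and 14 among the 50 with a position.

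The name of on or off genes holds fully for few of them. Of the 1620 values (54 genes in 30 libraries) 472 (29.1%) were on, 487 (30.1%) were off and 661 (40.8%) lay between. Only Snurf, Snrpn, Eif3j1, Hmga1b, Gm13070 and Gm5801 had 0 libraries between the thresholds. When the 30 values of a gene were sorted, the widest empty gap between neighbours ran from 7.27 log2 units in Snurf to 0.588 in D930028M14Rik, with a median of 2.00. It reached 4 in 12 members, 3 in 17 and 2 in 27. Pseudogenes numbered 5 of the 17 with a gap of at least 3 and 2 of the other 37. Just inside the thresholds stood Gm10499, whose value at the third lowest library was -2.04, and Cyp11b1, with 2.01 at the third highest. Just outside stood LOC101055758 (-1.98) and Gm32633 (1.99).

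**Figure D1:**
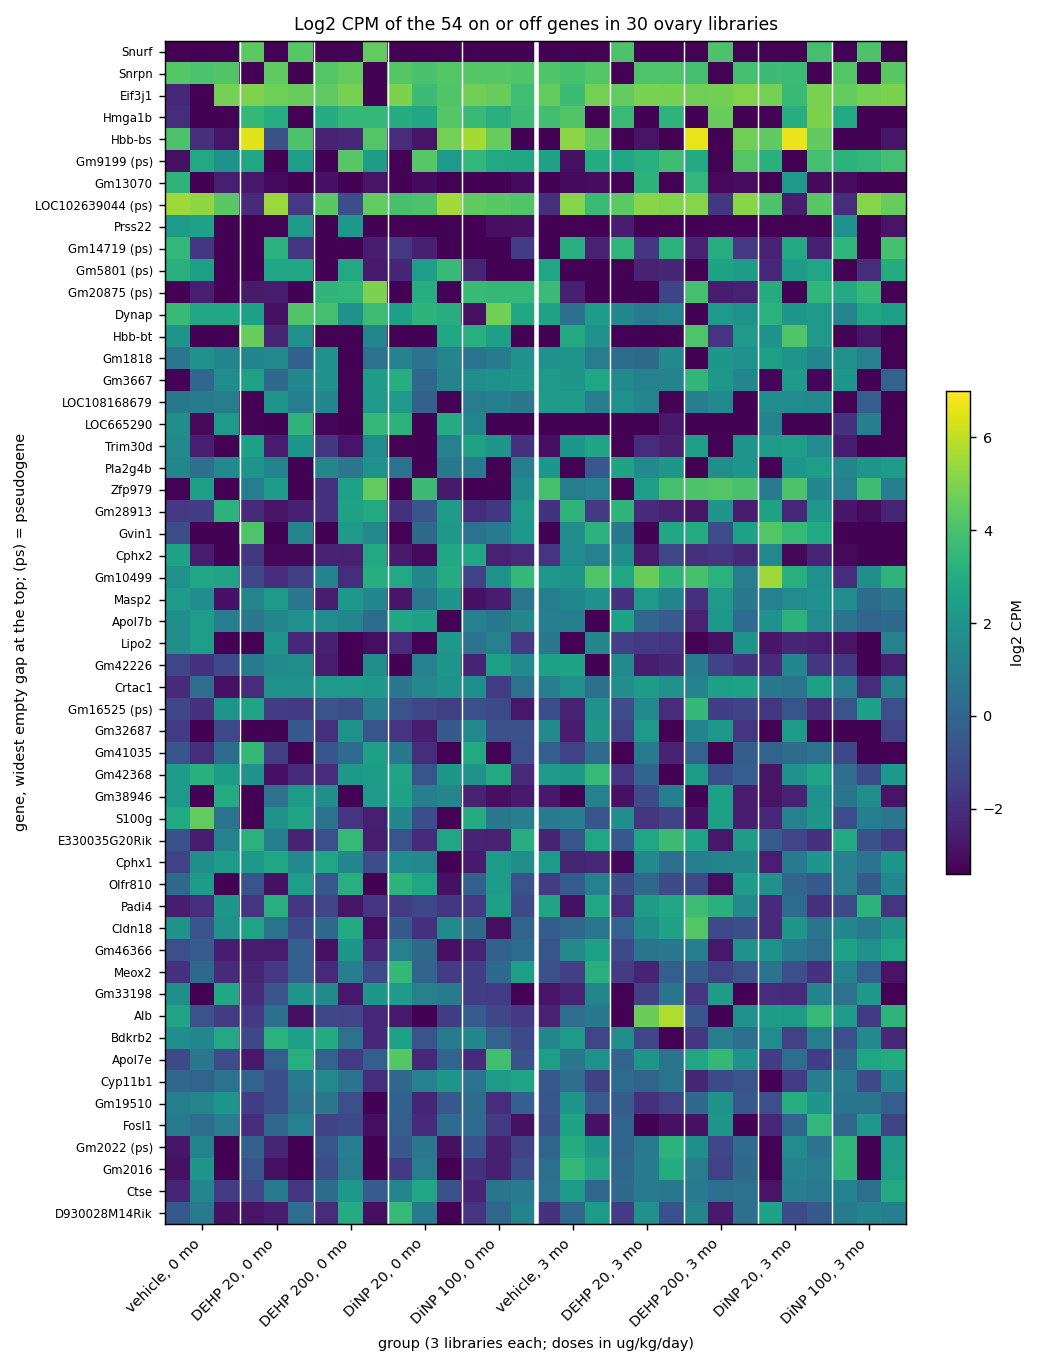
Log2 CPM (colour) of the 54 members (rows, sorted by their widest empty gap, pseudogenes marked ps) in 30 libraries (columns, 3 per group, the thick line divides 0 from 3 months). Rows at the top hold 2 separate levels and rows at the bottom a graded range, and light and dark cells alternate within groups of 3.

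Snrpn (Entrez 20646) and Snurf (84704) were never on in the same library. Snurf stood at the table's lowest value, -3.34 log2 CPM, in 23 libraries and between 3.93 and 4.51 in 7. Snrpn was at -3.34 in exactly those 7 and between 3.71 and 4.49 in the other 23. Snurf was on in libraries 1 and 3 of DEHP 20 (4.37 and 4.28) and library 3 of DEHP 200 (4.51) at 0 months. At 3 months it was on in library 1 of DEHP 20 (4.09), library 2 of DEHP 200 (4.09), library 3 of DiNP 20 (3.93) and library 2 of DiNP 100 (4.11). Thus it was on in 0 of 6 vehicle and 7 of 24 treated libraries, and no group had it on in all 3.

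The summed CPM of the pair hardly moved. On the log2 scale it ran from 3.71 to 4.51, with an SD of 0.19 over 30 libraries, against 3.25 for Snurf and 3.22 for Snrpn alone. The largest fitted difference for Snurf was 5.11 ± 2.56 (SE) log2 with DEHP 20 at 0 months, and limma gave an adjusted p of 1. CPM is not divided by transcript length, so a share of summed CPM here says how reads were assigned and not how many molecules each gene had.

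Beta globin genes differed in share between libraries. Shares of summed CPM, here and below, are given in ranges cut at the 2 widest gaps between the sorted shares. This cut yields 3 ranges for any gene, so their number is no result. Where fewer are given, neighbouring ranges were joined. Hbb-bs (Entrez 100503605, 7:103826523-103827928) and Hbb-bt (101488143, 7:103812524-103813923) together gave 0 to 0.865% of the CPM of all 4 beta chain rows in 16 libraries. They gave 45.1 to 51.5% in 12 libraries and 99.6 to 100% in 2, library 1 of DEHP 20 and library 1 of DiNP 100, both at 0 months. The 4 chains summed ran from 4.30 to 8.29 log2 CPM. Hba-a1, the alpha chain, was on in all 30 libraries (4.26 to 7.98 log2 CPM), so red cell RNA was present also where Hbb-bs was at the floor. Over the erythroid list without beta chains the summed level ran from 5.47 to 7.14 log2 CPM at 0 months and from 4.47 to 8.03 at 3 months.

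In single libraries Hbb-bs was on or off within most groups. At 0 months libraries 1 to 3 stood at 4.08, -2.01 and -2.81 log2 CPM with vehicle, 6.52, -0.83 and 4.08 with DEHP 20, and -2.42, -2.25 and 4.23 with DEHP 200. They stood at -2.08, -2.83 and 4.82 with DiNP 20 and at 5.61, 4.598 and -3.34 with DiNP 100. At 3 months they stood at -3.34, 5.20 and 4.45 with vehicle, -3.34, -2.84 and -3.34 with DEHP 20, and 6.59, -3.34 and 4.73 with DEHP 200. DiNP 20 was on throughout (4.48, 6.71 and 4.46) and DiNP 100 off throughout (-3.34, -3.34 and -2.75). Neither group differed from vehicle, whose libraries held both states, past the threshold: the differences were 3.12 ± 2.81 (limma adjusted p = 1) and -5.25 ± 2.81 (adjusted p = 0.571).

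Other genes of the same stretch of chromosome 7 followed the globins. Trim30d (7:104470014-104507853), of a family with roles in innate immunity, was on the same side of its widest gap as Hbb-bs in 30 of 30 libraries, as was Hbb-bt. Pearson r over 30 libraries was 0.99 between Hbb-bs and Hbb-bt and 0.97 between Hbb-bs and Trim30d, which lie 0.644 Mb apart. Among rows that are not members, Trim5 (r = 0.932) and Trim6 (0.865) ran with Hbb-bs and Trim12c ran the other way (-0.734). Gvin1, farther along the chromosome at 7:106156535-106215340, was above its gap in 20 libraries, which included all 14 with Hbb-bs above its own.

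**Figure D2:**
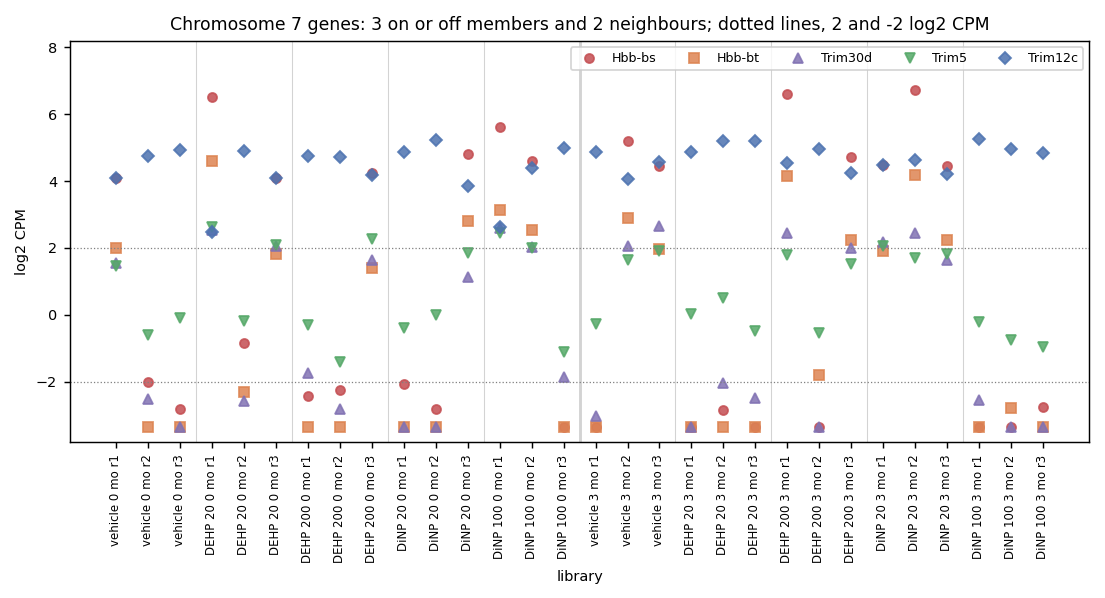
Log2 CPM of Hbb-bs, Hbb-bt and Trim30d and of their neighbours Trim5 and Trim12c in each of 30 libraries, ordered by group; dotted lines mark 2 and -2. Hbb-bs, Hbb-bt and Trim30d are high or low in the same libraries, and Trim12c is lowest (2.47 and 2.64) in library 1 of DEHP 20 and library 1 of DiNP 100 at 0 months.

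Cphx1 and Cphx2 were opposite as well (r = -0.896 over 30 libraries). Cphx2 gave 0 to 7.79% of the CPM of the pair in 21 libraries, 22.1% in 1, and 94.4 to 100% in 8. Those 8 libraries came from both times and from 7 groups with DEHP, DiNP or vehicle. Cphx1 stood between -3.34 and 2.77 log2 CPM and Cphx2 between -3.34 and 2.87, on in 8 and 4 libraries. The pair summed varied less (SD 0.66 log2) than Cphx1 (1.91) or Cphx2 (2.21).

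Copies with an active parent gene switched while the parent stayed on, at a level that ran against some copies and with another. LOC102639044 stood between -2.61 and 5.56 log2 CPM, while Npm1 ran from 8.48 to 9.31 in all libraries. Cut in the same way, the copy's share of their summed CPM was 0.0158 to 0.0840% in 7 libraries, 3.38 to 4.58% in 13 and 6.80 to 7.71% in 10. Gm5801 gave 0 to 0.289% of its sum with Ube2j2 in 17 libraries, 10.6 to 14.8% in 11 and 19.1 to 22.4% in 2. Ube2j2 itself stayed between 5.27 and 5.98 log2 CPM. Gm14719 gave 0 to 0.659% of its sum with Ppdpf in 21 libraries and 23.7 to 30.2% in the other 9. Gm9199 gave up to 0.0570% of its sum with Gcsh, a protein of glycine breakdown, in 7 libraries and 5.41 to 13.4% in the other 23. Over 30 libraries r with the parent was -0.522 for Gm5801, -0.549 for Gm14719 and -0.129 for LOC102639044, but 0.739 for Gm9199. The sum varied less than the parent for Gm5801 (SD 0.157 against 0.191 log2) and Gm14719 (0.250 against 0.314). For Gm9199 it varied more (0.453 against 0.398).

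Eif3j1 (2:122028580-122053632) was the member on most often. It was on in 27 libraries (3.66 to 5.02 log2 CPM) and off in 3, which were libraries 1 and 2 of vehicle (-2.21 and -3.34) and library 3 of DEHP 200 (-3.34), all at 0 months. Beside its copy Eif3j2 (6.07 to 6.69 log2 CPM) its share was up to 0.124% in those 3, 13.2 to 15.03% in 5 and 21.3 to 30.9% in 22. Hmga1b gave up to 0.322% of its sum with Hmga1 in 11 libraries, 30.4 to 39.3% in 13 and 47.3 to 66.9% in 6. Over 30 libraries r was -0.565 between Eif3j1 and Eif3j2 and -0.442 between Hmga1b and Hmga1. Each sum varied less than the partner, with an SD of 0.109 against 0.153 log2 for Eif3j2 and 0.501 against 0.670 for Hmga1.

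In other pairs the ranges were wider. Gm32687 gave 0 to 6.78% of its sum with Zfp433 in 22 libraries, 26.6 to 33.9% in 3 and 43.8 to 63.3% in 5, and the pair summed was nearly level (SD 0.19 log2 against 2.03 for Gm32687). Pla2g4b gave 0% of its sum with Gm28042 in 6 libraries, 13.1 to 59.1% in 23 and 100% in 1. Gvin1 gave 0 to 8.68% of its sum with Gm4070 in 14 libraries, 16.0 to 34.1% in 14 and 43.0 to 49.9% in 2. Apol7b gave 0 to 31.5% of its sum with Apol7e in 13 libraries, 55.4 to 60.9% in 3 and 77.6 to 97.9% in 14, with r = -0.173 between the genes. These partners were chosen by shared sequence, gene name or locus, not by how the pair moved.

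**Figure D3:**
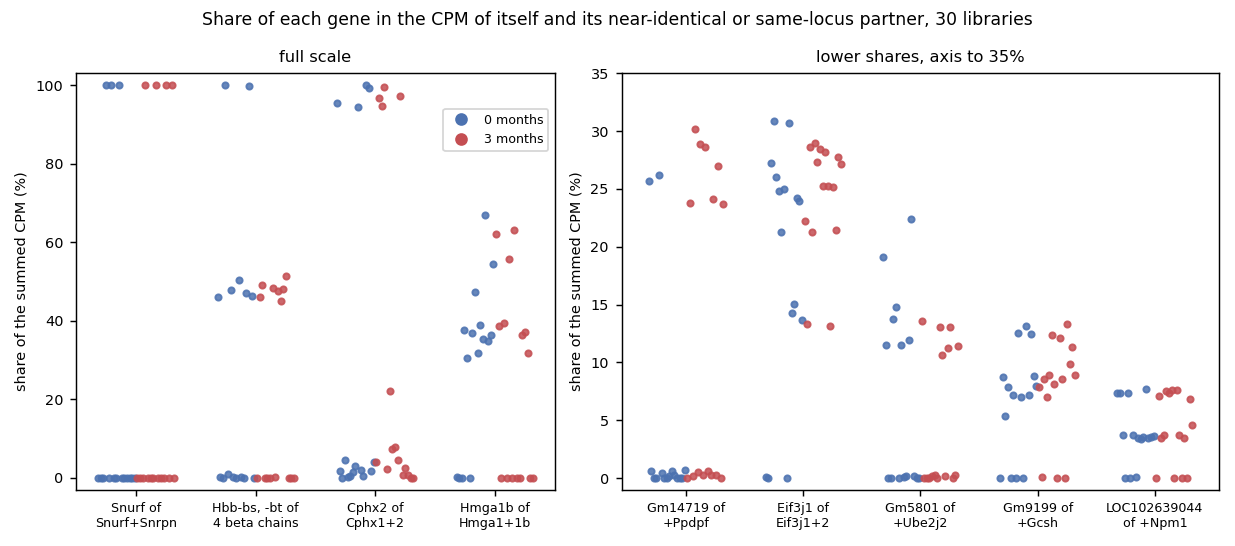
Share (%) of each member in the CPM of itself and its partner, 1 dot per library (30 per gene, blue 0 months, red 3 months), at left on a full scale and at right on an axis to 35%. Cut at their widest gaps, the shares of the globins are 0 to 0.865%, 45.1 to 51.5% and 99.6 to 100%. Dots of Snurf at 0% and at 100% hold both colours.

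There were 13 pairs of members within 1 Mb, and 6 had |r| of at least 0.8 over 30 libraries: the 3 pairs among Hbb-bs, Hbb-bt and Trim30d, Snrpn with Snurf, Cphx1 with Cphx2, and Gm2016 with Gm2022. No row outside the members within 1 Mb reached r = -0.8. For 8 of the 50 placed members (16%) the row with the highest r lay within 1 Mb, against 2.80% of 17709 placed rows. The 31 members with no row at r of 0.8 or more included Eif3j1, Hmga1b, Gm13070, Prss22, Gm14719, Gm5801 and Gm20875.

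A few graded members ran with many rows of the table. Gm46366, a non-coding RNA gene on chromosome 12, had 467 rows at r of at least 0.8, E330035G20Rik 107 and D930028M14Rik 68. None of the 17 members with a gap of 3 or more had 50 such rows, and these 3 of the 37 others did. Alb ran with Gc (r = 0.936), another plasma protein gene, and Fosl1, a subunit of the AP-1 transcription factor, with Errfi1 (0.910).

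States were shared about as often within a group as between groups. Of 540 combinations of a member with a group, 37 had all 3 libraries on, 38 all 3 off, and 168 (31.1%) held on and off together. At least 1 such mixed group was found in 48 of the 54 members. Groups accounted for a median of 28.5% of a member's variance and 34.8% over all rows. With only 3 libraries per group, a part of the variance lies between groups even where no group differs. Between pairs of libraries, the share of members in the same state (among those on or off in both) had a median of 58.7% within a group (30 pairs), 60.9% between groups of the same time (180) and 59.1% between times (225). Members were on at both times in 43 cases and off at both times in 50.

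Each library had its own set. The number of members on ran from 9 in library 1 of DEHP 200 at 0 months to 21 in library 2 of vehicle and library 2 of DEHP 200 at 3 months, with a median of 15. The number off ran from 10 to 23 with a median of 16. By time, the median number on was 14 at 0 and 17 at 3 months, and the ranges of 9 to 20 and 10 to 21 overlapped.

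**Figure D4:**
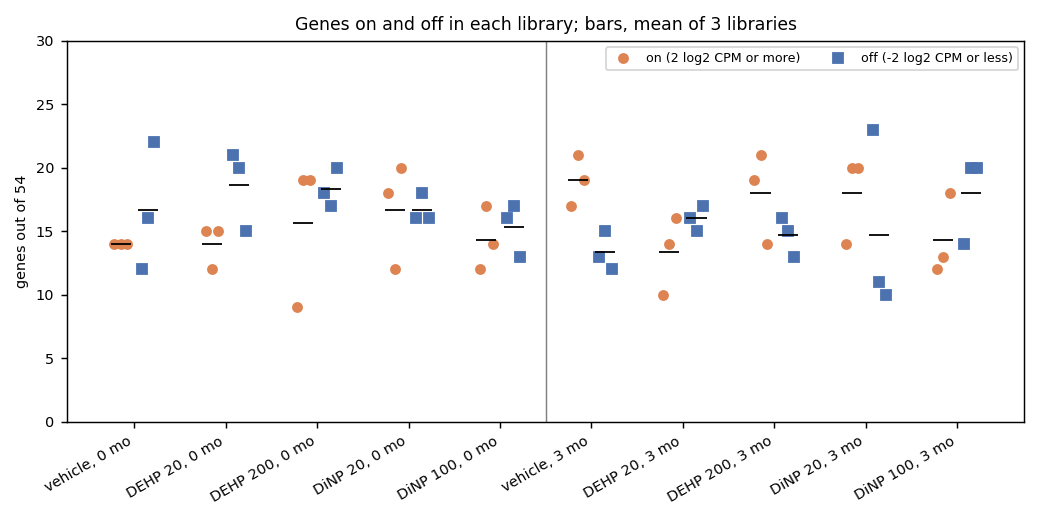
Number of the 54 members on (circles) and off (squares) in each library, by group, with bars at the mean of 3 libraries. Counts on run from 9 to 21 and counts off from 10 to 23, and the groups overlap.

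No member passed in any comparison of a treated group with vehicle. Each test was limma over all 18022 rows with a Benjamini-Hochberg adjusted p under 0.05. Of the 54 members 0 were called at 0 months with DEHP 20, DEHP 200, DiNP 20 or DiNP 100, and 0 at 3 months, where 0% of all rows were called in each of the 8. At an unadjusted p under 0.05 there were 5, 5, 6 and 5 of the 54 members at 0 months and 1, 0, 1 and 1 at 3 months. Of all 18022 rows there were 471, 876, 407 and 373 at 0 months and 513, 407, 347 and 1532 at 3 months. The members' share was thus above that of all rows in each comparison at 0 months and below it in each at 3 months. Comparisons at a time are not independent, since they share their vehicle libraries. The F tests of any treatment called 0 members and 0% of rows at either time. At an unadjusted p under 0.05 they gave 4 members at each time, beside 420 rows at 0 and 847 at 3 months. The F test over the 10 groups called 0 members and 0.244% of rows, with 3 members and 2146 rows at an unadjusted p under 0.05. Many of these values have 2 levels, which the normal model of limma describes poorly.

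Members whose 3 treated libraries did not overlap with the 3 vehicle libraries were more frequent than among all rows in some comparisons and less frequent in others. They stood most above all rows with DiNP 100 at both times, on counts of 8 and 6 members. At 0 months they numbered 5 with DEHP 20 (9.26%, background 9.5%), 6 with DEHP 200 (11.1%, background 8.21%), 4 with DiNP 20 (7.41%, background 9.71%) and 8 with DiNP 100 (14.8%, background 8.55%). At 3 months they numbered 2 (3.70%, background 6.45%), 2 (3.70%, background 6.25%), 4 (7.41%, background 6.53%) and 6 (11.1%, background 6.25%) in the same order. The median difference over the members ran from -0.41 to 0.16 log2 in the 8 comparisons and that over all rows from -0.01 to 0.01. All 4 comparisons at a time share the same 3 vehicle libraries.

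Hmga1b, Gm20875, Hbb-bs and Gvin1 were on in all 3 libraries of 1 group and off in all 3 of another at the same time. Hmga1b was off in vehicle at 0 months (-2.07, -3.34 and -3.34 log2 CPM). It was on with DEHP 200 (3.05, 3.53 and 3.51), DiNP 20 (3.05, 2.84 and 4.25) and DiNP 100 (3.63, 3.19 and 3.68), and mixed with DEHP 20 (3.53, 3.07 and -3.34). The differences from vehicle were 6.28, 6.30 and 6.42 log2, each ± 2.44, with limma adjusted p of 0.939, 1 and 1. At 3 months vehicle held both states (3.87, 4.17 and -3.34), and so did all 4 treated groups.

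Gm20875, a transcribed pseudogene on chromosome 4 (4:146749743-146750519), ranked highest among the members in the F test over all groups (limma adjusted p = 0.310). At 0 months it was off in vehicle (-3.34, -2.52 and -3.34) and DEHP 20 (-2.66, -2.59 and -3.34). It was on with DEHP 200 (3.39, 3.49 and 4.97) and DiNP 100 (3.59, 3.54 and 3.53), and mixed with DiNP 20 (-3.34, 3.09 and -3.34). The differences of 7.02 ± 2.07 and 6.62 ± 2.07 log2 from vehicle had limma adjusted p of 0.939 and 1. At 3 months no group was all on or all off, and in DEHP 20 none was on (-3.34, -3.34 and -1.28).

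Gvin1 was on in all 3 DiNP 20 libraries (4.27, 3.57 and 2.91) and at -3.34 in all 3 DiNP 100 libraries at 3 months, beside -3.34, 1.71 and 3.26 with vehicle. The differences from vehicle were 3.04 ± 1.88 and -3.88 ± 1.88 log2 (limma adjusted p = 1 and 0.571). The vehicle libraries overlapped with both groups.

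Crtac1, an extracellular matrix protein of cartilage, had the smallest p with DEHP 200 and with DiNP 20 at 0 months. Vehicle stood at -2.11, 0.30 and -2.93 log2 CPM, DEHP 200 at 2.17, 2.20 and 2.13, and DiNP 20 at 0.76, 1.497 and 1.90. The differences of 3.75 ± 1.00 and 2.97 ± 1.00 had limma adjusted p of 0.939 and 1. Vehicle at 3 months (1.05, 1.85 and 0.42) was also above vehicle at 0 months in each library, by 2.69 ± 1.00 (adjusted p = 0.611). Eif3j1 had the smallest p with DEHP 20 at 0 months (4.98 ± 1.57, adjusted p = 1), and its vehicle group held 2 of the 3 libraries in which it was off.

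Among the smallest p-values at 3 months, Gm42368 was on in all 6 vehicle libraries (2.15 to 3.56 log2 CPM over both times) and in 8 of 24 treated ones. With DEHP 20 at 3 months it stood at -1.86, 0.00 and -3.34, a difference of -4.38 ± 1.55 from vehicle (limma adjusted p = 1). LOC108168679, named as similar to a FAM205A protein, stood at -3.34, -0.27 and -3.34 with DiNP 100 and at 2.25, 2.29 and 1.06 with vehicle (-4.19 ± 1.602, adjusted p = 0.571). Gm3667 stood at -3.28, 2.35 and -3.23 with DiNP 20 and at 2.25, 2.12 and 2.73 with vehicle (-3.75 ± 1.51, adjusted p = 1).

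Time was the only contrast in which members passed. Libraries at 0 and at 3 months came from different collections. Time therefore cannot be told apart from age or from anything else that differed between the collections. A gene said to rise is 1 with a higher level at 3 than at 0 months, whatever the cause. Over all treatments 4 of the 54 were higher at 3 than at 0 months (7.41%) and 0 were lower, where 18.1% of all rows were called, 9.23% higher and 8.89% lower. With these 4, 11 members had an unadjusted p under 0.05, as did 5973 of 18022 rows. Among vehicle libraries alone 0 members were called, beside 0.00555% of rows, with 4 members and 1395 rows at an unadjusted p under 0.05. No member's 15 libraries at 1 time lay apart from the 15 at the other, as was so for 0.0499% of rows. The 4 called members, Gm46366, Gm2016, Gm2022 and Alb, were each on in 0 or 1 library at 0 months. They met the on side of the rule only through libraries at 3 months, where they were high. Their calls therefore cannot show by themselves that on or off states follow time.

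Gm46366 rose by 2.02 ± 0.57 log2 (limma adjusted p = 0.0183). Its lowest, median and highest values were -2.94, -0.85 and 2.09 log2 CPM at 0 months and -2.72, 1.04 and 2.76 at 3 months. The ranges overlapped widely, and it was on in 1 and in 3 of 15 libraries. This gene kept its call when any 1 library was left out (adjusted p up to 0.0371).

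Gm2016 and Gm2022 lie side by side on chromosome 12 (12:87874072-87877859 and 12:87892834-87896722), in a cluster of near-identical predicted genes, and ran together (r = 0.982 over 30 libraries). Gm2016 rose by 2.36 ± 0.74 log2 (limma adjusted p = 0.0309). Its lowest, median and highest values were -3.34, -1.86 and 2.05 log2 CPM at 0 months and -3.34, 0.98 and 3.52 at 3 months. Gm2022 rose by 2.15 ± 0.73 (adjusted p = 0.0435), with a median of -1.35 at 0 and 0.85 at 3 months. Both were on in 5 of 15 libraries at 3 months, while at 0 months Gm2016 was on in 1 and Gm2022 in 0. Among neighbours that ran with Gm2016 (r of 0.876 to 0.941), Gm4027 (1.48 ± 0.37, adjusted p = 0.00938) and Gm21936 (1.67 ± 0.52, adjusted p = 0.0297) were called too. Gm5662 and Gm8300 were not (adjusted p = 0.0667 and 0.0861). A row that runs with Gm2016 shares its time difference, so these calls are no separate support. Gm10436 (r = -0.740 with Gm2016) and Gm2042 (-0.680), also nearby, ran the other way. Gm2016 shares 84.0% of its 31-base words with Gm5662, so the split of reads between them is uncertain.

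Alb rose by 2.34 ± 0.78 log2 (limma adjusted p = 0.0390), with lowest, median and highest values of -3.34, -1.48 and 2.66 log2 CPM at 0 months and -3.34, 1.92 and 5.78 at 3 months. The highest values were those of libraries 2 and 3 of DEHP 20 at 3 months (4.66 and 5.78). Of the 14 hepatocyte and plasma protein markers 11 were in the table, and 5 of them were called higher and 0 lower, beside 9.23% and 8.89% of all rows. The 5 were Alb, Fgb, Ahsg, Apoa2 and Ttr, which carries thyroid hormone and retinol. This count includes Alb itself, which met the on side of the rule only through libraries at 3 months. Ttr was highest in the same 2 libraries as Alb (0.89 and 1.78 log2 CPM). The count is therefore no separate support for the call of Alb. All listed rows other than Alb, called or not, had a summed level of 4.12 to 5.38 log2 CPM at 0 months and 3.86 to 6.02 at 3 months. The median difference over the 11 was 0.65 log2, beside -0.01 over all rows. In 5 of the 11 the median library was at or below -2, and Ttr was so in 21 libraries. The part of other cells or plasma RNA in this result was not tested, and in whole ovaries more cells of a type and more RNA per cell cannot be told apart.

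Zfp979, a zinc finger gene on chromosome 4, just missed the threshold (2.69 ± 0.95 log2, limma adjusted p = 0.0506). It was off in 7 of 15 libraries at 0 months and in 1 of 15 at 3 months, and on in 5 and 8. Its neighbour Zfp984 (0.142 Mb away, r = 0.860 over 30 libraries) was on in 21. Cyp11b1 ran the other way, on in 3 libraries at 0 and none at 3 months, with a difference of -1.11 ± 0.41 and an adjusted p of 0.0642. Gm10499 differed by 1.62 ± 0.59 (adjusted p = 0.0587).

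By the on threshold, 11 members were on at 1 time only. Apart from Gm2022, none of them differed between the times past the test. Those on only at 3 months were Pla2g4b (8 libraries), Gm2022 (5), Gm32687 (4), Fosl1 (4) and Gm1818 (3). Those on only at 0 months were LOC665290 (5), Prss22 (4), Cphx2 (4), Lipo2 (3), Gm41035 (3) and Cyp11b1 (3). Several of them came close to the threshold at the other time. At 0 months Pla2g4b reached 1.99 log2 CPM, Gm32687 1.92 and Gm1818 1.90, and at 3 months Lipo2 also reached 1.90. The mean of Gm1818 was 0.81 log2 CPM at 0 and 0.87 at 3 months. Prss22, a serine protease, was on in libraries 1 and 2 of vehicle (2.22 and 2.55 log2 CPM), library 3 of DEHP 20 (2.23) and library 2 of DEHP 200 (2.16), and it reached 1.91 in library 1 of DiNP 100 at 3 months. Gm13070, a predicted non-coding gene, was off in 26 libraries and on in library 1 of vehicle at 0 months (3.36). At 3 months it was on in library 2 of DEHP 20 (3.32), library 1 of DEHP 200 (3.499) and library 2 of DiNP 20 (2.22). These single libraries belonged to different groups.

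The 4 calls over time were not stable to single libraries, apart from that of Gm46366. Leaving out each of 30 libraries in turn gave 1 to 6 called members. It was 1 without libraries 2 or 3 of vehicle, library 3 of DEHP 20, library 1 of DEHP 200 or library 2 of DiNP 20, all at 3 months. It was 2 without libraries 1 or 3 of vehicle, library 3 of DEHP 20, libraries 1 or 3 of DiNP 20 or library 2 of DiNP 100 at 0 months, and without library 2 of DEHP 20 or libraries 1 or 3 of DiNP 100 at 3 months. Gm2016 lost its call in 10 of the 30 cases, Gm2022 in 20 and Alb in 21, with adjusted p up to 0.0601, 0.0829 and 0.0725.

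**Figure D5:**
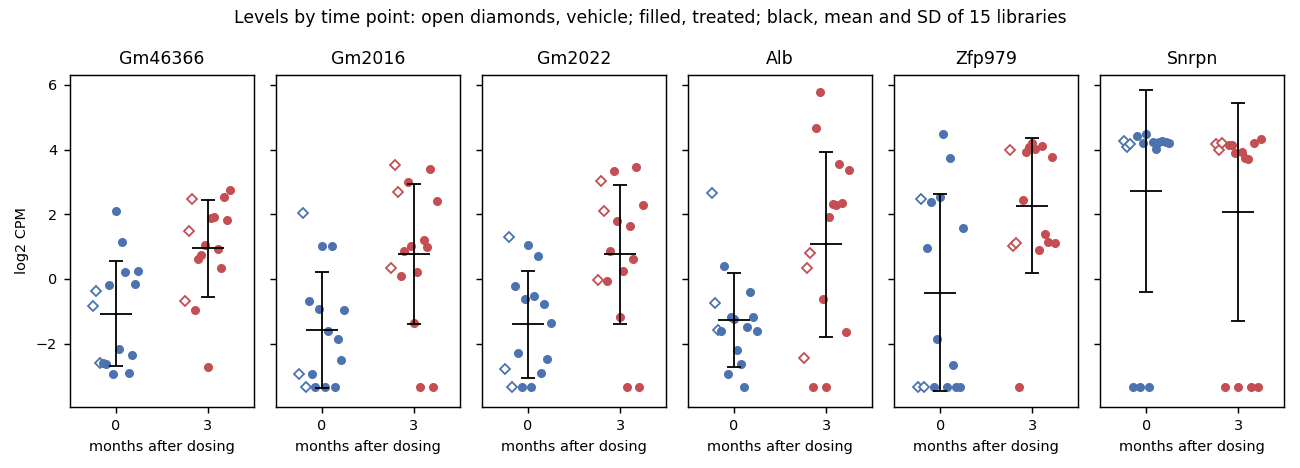
Log2 CPM at 0 and 3 months of the 5 members with the smallest p for time and of Snrpn, 15 libraries each, vehicle as open diamonds and treated as filled dots; black bars are mean and SD. The 2 times overlap in every panel, and Snrpn holds its 2 levels at both.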

How the data were processed

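Messenger RNA of ovaries was measured in 30 libraries (10 groups of 3). Per the submitters' processing notes the tools were FastQC 0.11.8, Salmon 0.11.3, edgeR and R 3.5.2 with GRCm38.p6. Per the labels' protocols libraries were stranded and sequenced as single reads. The authors deposited log2 CPM values, whose floor was -3.343 (0.0986 CPM). They were used as deposited; read counts were not recovered from them, and depth was estimated.

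Members, gene lists and tests were chosen with earlier results of these data known. Genes given values by library were the 10 with the widest gaps, those with the smallest p (5 for time, 5 for the F test, 1 per treated group), correlated neighbours within 1 Mb, those on and off in whole groups, those on lists, those at the thresholds and those on least or most often.

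limma 3.58.1 (R 4.3.3) was fitted to all 18022 rows, unfiltered because 27 members have a mean at or below 0, with 1 mean per group, 20 residual degrees of freedom and a trended prior. Benjamini-Hochberg adjustment was made over all rows of a comparison. Interaction tests were added after the data were seen. Classes and positions came from RefSeq GRCm38.p6 (52 of 54 members matched), promoters from RefSeq (33 members), and 31-base words from GENCODE transcripts. Shares used CPM above the floor. Scripts were tested on simulated data. Alternatives were another normalization, filter, prior or threshold, an added 1 CPM, a replicate block, and each library left out.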

Additional observations from a re-analysis of the deposited data

Results flagged for a closer look

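Gm3667, a predicted coding gene on chromosome 14, moved in opposite directions with DiNP 100 at the 2 times: 2.41 log2 above vehicle at 0 months and -2.82 at 3 months, a change of -5.227. It stood at 1.68, 1.93 and 2.10 log2 CPM with DiNP 100 and -3.29, 0.10 and 1.68 with vehicle at 0 months, and at 2.07, -3.34 and -0.09 with DiNP 100 and 2.25, 2.12 and 2.73 with vehicle at 3 months. Every DiNP 100 library lay above the vehicle mean at 0 months and below it at 3 months, a criterion that is itself no test. The limma interaction was -5.23 ± 2.14 (SE) with an adjusted p of 0.99983 over all rows, so the difference was not called. Each of the 4 interactions called 0 of 54 members (0% of rows). At an unadjusted p under 0.05 there were 5, 2, 3 and 7 members, beside 473, 506, 329 and 443 of 18022 rows.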

How the results depend on the processing

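Of 1066 alternative values 980 were labelled the same and 0 reversed. For the difference of a single gene, same means the same direction and side of the threshold. For a count, which has no direction and cannot reverse, it means an equal or similar number. Many of the counts set 0 called members beside 0. All 8 comparisons with vehicle, the 3 F tests and vehicle over time called 0 members under each alternative run. Over time 4 members were called, and 7 at an adjusted p under 0.10. Among rows with a mean log2 CPM above 0 the count was 1 (Zfp979), but this filter removes all 4 before the test, since their means are at or below 0, and leaves 27 members, so it says nothing about those calls. Leaving out 1 library gave 1 to 6. The number of members by the rule was 275 with thresholds of -1 and 1, 23 with -2 and 3, 133 with 2 libraries on each side and 28 with 5, and 48 to 54 without 1 library. Without libraries 2 and 3 of DEHP 200 at 0 months, the shallowest and the deepest, an alternative chosen after seeing the data, 4 were called, with Alb and Gm2022 no longer among them and Zfp979 and 1 other added. Median centring kept the same 54 members and quantile normalization 49 of them. Neighbouring pairs at |r| of 0.8 were 6 by Pearson and 3 by Spearman, which ranks the values at the floor as ties. The cause of the other changes was not tested.

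Replicate numbers did not pair the libraries: over 60 same-numbered pairs r of their deviations ran from -0.387 to 0.296 (median -0.03), with 17 over 0.1. With the replicate block 5 members were called over time instead of 4, Zfp979 being added (adjusted p = 0.0446), and 0 in every other comparison, while the F test over 10 groups called 10 rows of the table instead of 44. Near the floor a library of about 30.1 M reads has few reads per gene, so a state of off is not shown to be absence.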

Other observations

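The 2 rows left out by their H2- symbols showed the same kind of pattern. H2-Bl, a class I histocompatibility gene on chromosome 17, was on in 22 libraries and off in 6, between -3.34 and 6.502 log2 CPM. It ran with the member Gm10499 nearby (0.0616 Mb, r = 0.879 over 30 libraries). H2-Q7 was on in 4 and off in 3. Of 4 Y-linked genes 1 was in the table, Eif2s3y, which stood between -2.88 and -0.23 log2 CPM in these ovaries and never reached the on threshold.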
